A study of Mus musculus with 20 samples.

Results

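The 33 genes described here encode the mouse enzymes, carriers and electron carriers of fatty acid oxidation, a ketone body enzyme, the nuclear receptor PPARA and 6 of its well known target genes. They are listed by gene name, out of 55359 gene identifiers counted in every library, and all 33 were among the 14428 genes that had enough counts to be tested. Messenger RNA was sequenced from 20 pieces of frozen liver of male wild-type mice of strain C56BL/6 (spelled as in the labels), killed at 35 weeks of age, with 4 libraries in each of 5 groups. The groups were tumours of exercised mice on a high-fat diet, non-tumour liver of exercised mice on that diet, tumours of non-exercised mice on that diet, non-tumour liver of non-exercised mice on that diet, and normal-diet liver, also without exercise. Every mouse, the normal-diet controls included, had been painted on the back with 50 µL of 0.5% DMBA (a chemical carcinogen) in acetone on postnatal day 4 to 5. Mothers and pups then received chow with 12 kcal% fat (normal diet) or a diet with 60 kcal% fat (high-fat diet). The labels describe the obese mice as heavier than 45 g at the end. Exercised mice were divided off at 20 weeks of age, trained on a treadmill from 10 m/min over 5 weeks, and then ran at 18 m/min for 20 min/day on 5 days/week over the last 10 weeks. Exercised and non-exercised mice were killed on 1 day within 2 h of the last run, so an effect of repeated training cannot be told apart from that of the last bout. The labels give neither a killing time for the normal-diet mice nor a tumour status for their liver pieces. The titles give a tumour and a non-tumour piece the same mouse number within each high-fat arm, whereas the numbers of different arms belong to different mice.

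Fatty acids enter the liver cell, are joined to coenzyme A, and cross the inner mitochondrial membrane bound to carnitine. A repeated cycle of dehydrogenation, hydration, a second dehydrogenation and thiolysis then shortens them, passing electrons to the respiratory chain through the electron transfer flavoprotein, while peroxisomes handle very long and dicarboxylic chains by a parallel route. In fasting, the liver turns the resulting acetyl-CoA into ketone bodies, and PPARA, which binds fatty acids, switches many of these genes on as a partner of the retinoid X receptor.

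The genes Hadha and Hadhb, which encode the alpha and beta subunits of the mitochondrial trifunctional protein, start head to head. Their shared start region is shown because their counts moved together more closely than those of most pairs of genes in the list. In the RefSeq promoter table (build GRCm38.p6) the 2 start sites lie 273 bases apart at chr5:30154980-30155253, with Hadha read from the minus strand and Hadhb from the plus strand. The 274 bases between them, start sites included, have a GC content of 60.2% and are given on the plus strand. Capitals mark the 228 bases that belong to both genes' promoter windows, each of which runs from 250 bases before to 50 bases after the start.
Hadha and Hadhb, between their start sites: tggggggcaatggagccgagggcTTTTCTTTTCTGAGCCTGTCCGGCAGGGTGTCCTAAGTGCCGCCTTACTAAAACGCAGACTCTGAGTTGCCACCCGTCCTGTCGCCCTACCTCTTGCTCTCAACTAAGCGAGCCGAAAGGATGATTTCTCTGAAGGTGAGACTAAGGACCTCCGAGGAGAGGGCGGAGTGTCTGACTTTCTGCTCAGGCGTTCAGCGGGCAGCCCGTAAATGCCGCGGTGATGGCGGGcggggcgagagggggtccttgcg
Promoter windows were found for 27 of the 33 genes. They were searched on both strands for 2 copies of AGGTCA in a row with any 1 base between them, the direct repeat bound by PPARA with its partner. None of the 27 genes held it exactly or with 1 mismatch, and 3 held it with 2 mismatches. Of 32851 windows in the whole table, 3.86% held it with up to 2 mismatches, 0.554% with up to 1 and 0.0396% exactly. The 3 matches are shown with the mismatched bases in lower case, because they are the places where the listed genes come closest to the motif. Numbering counts from the start site, and the number is that of the first base of the match in the gene's direction. For Etfa, printed on the opposite strand, that is the last base shown.
Echs1, first base at -83, window chr7:140116372-140116671 on the minus strand: AGGTCACgGGTCc
Etfa, first base at -77, motif on the strand opposite to the gene, window chr9:55512194-55512493 on the minus strand: AGGgCAAAGGTaA
Slc25a20, first base at +7, window chr9:108661886-108662185 on the plus strand: AGGTgAAAGGTCg
The windows are short, and sequence outside them was not searched.

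Libraries held 16471378 to 20271948 counts assigned to genes, so 1 CPM (counts-per-million, scaled by trimmed-mean normalisation factors) corresponds to 15.7 to 21.5 counts. Albumin (Alb), the main hepatocyte secretory transcript, took 10.6 to 15.3% of counts in tumours of exercised mice and 9.05 to 15.9% in tumours of non-exercised mice, against 4.99 to 7.36% and 4.06 to 6.24% in their non-tumour liver and 5.08 to 5.8% on the normal diet. Every library thus carried a strong hepatocyte transcript, tumours included. Transcripts of the mitochondrial genome took 3.26 to 4.5% and 2.56 to 4.05% of counts in the tumours of exercised and non-exercised mice, against 4.91 to 5.99% and 4.54 to 5.9% in their non-tumour liver. Markers of skeletal muscle, where several of these genes are also strongly expressed, were close to 0 (summed level at most 0.278 CPM in the high-fat groups). These are bulk tissue samples, in which fewer cells of a type and less RNA per cell cannot be told apart.

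The 33 genes together made up 0.448 to 0.815% of counts in tumours of exercised mice, 1.04 to 1.22% in their non-tumour liver, 0.424 to 0.804% in tumours of non-exercised mice, 1.15 to 1.26% in their non-tumour liver and 0.905 to 1.49% in normal-diet liver. Neither arm's tumours overlapped its non-tumour pieces on this measure. Between genes, levels can be compared only per length, as transcripts-per-million (TPM) averaged over all 20 libraries. The length used was that of all counted exons of a gene, such as 1516 bases for Acaa2 and 8730 for Hadha. It can exceed the main transcript and then lowers the TPM and rank of that gene. On that scale the peroxisomal thiolase gene Acaa1b (1480 TPM) and Acaa2, which encodes the mitochondrial thiolase that closes the oxidation cycle (1440 TPM), ranked 71 and 72 among the 14428 genes tested. They were the top 2 of the list in every group, with Acaa1b behind Acaa2 in tumours of exercised mice (728 and 1040 TPM), tumours of non-exercised mice (716 and 1060 TPM) and normal-diet liver (1460 and 1690 TPM) and ahead of it in both kinds of non-tumour liver on the high-fat diet. Etfa (alpha subunit of the electron transfer flavoprotein) was at rank 3 in every group, with 559 TPM over all libraries, and Acadvl (very-long-chain acyl-CoA dehydrogenase) had 383 TPM. Cyp4a14, a fatty acid omega-hydroxylase, held no fixed place, at rank 8 of the list in tumours of exercised mice, 20 in tumours of non-exercised mice and 4 in the other 3 groups, and its normal-diet mean rests on 1 library (library 2, 1980 TPM). The lowest levels belonged to Slc22a5, a plasma membrane carnitine transporter (16.4 TPM), Pdk4, a kinase that switches off pyruvate dehydrogenase (14.5 TPM), and the acyl-CoA thioesterase genes Acot1 (13.4 TPM) and Acot2 (9.99 TPM).

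**Figure D1:**
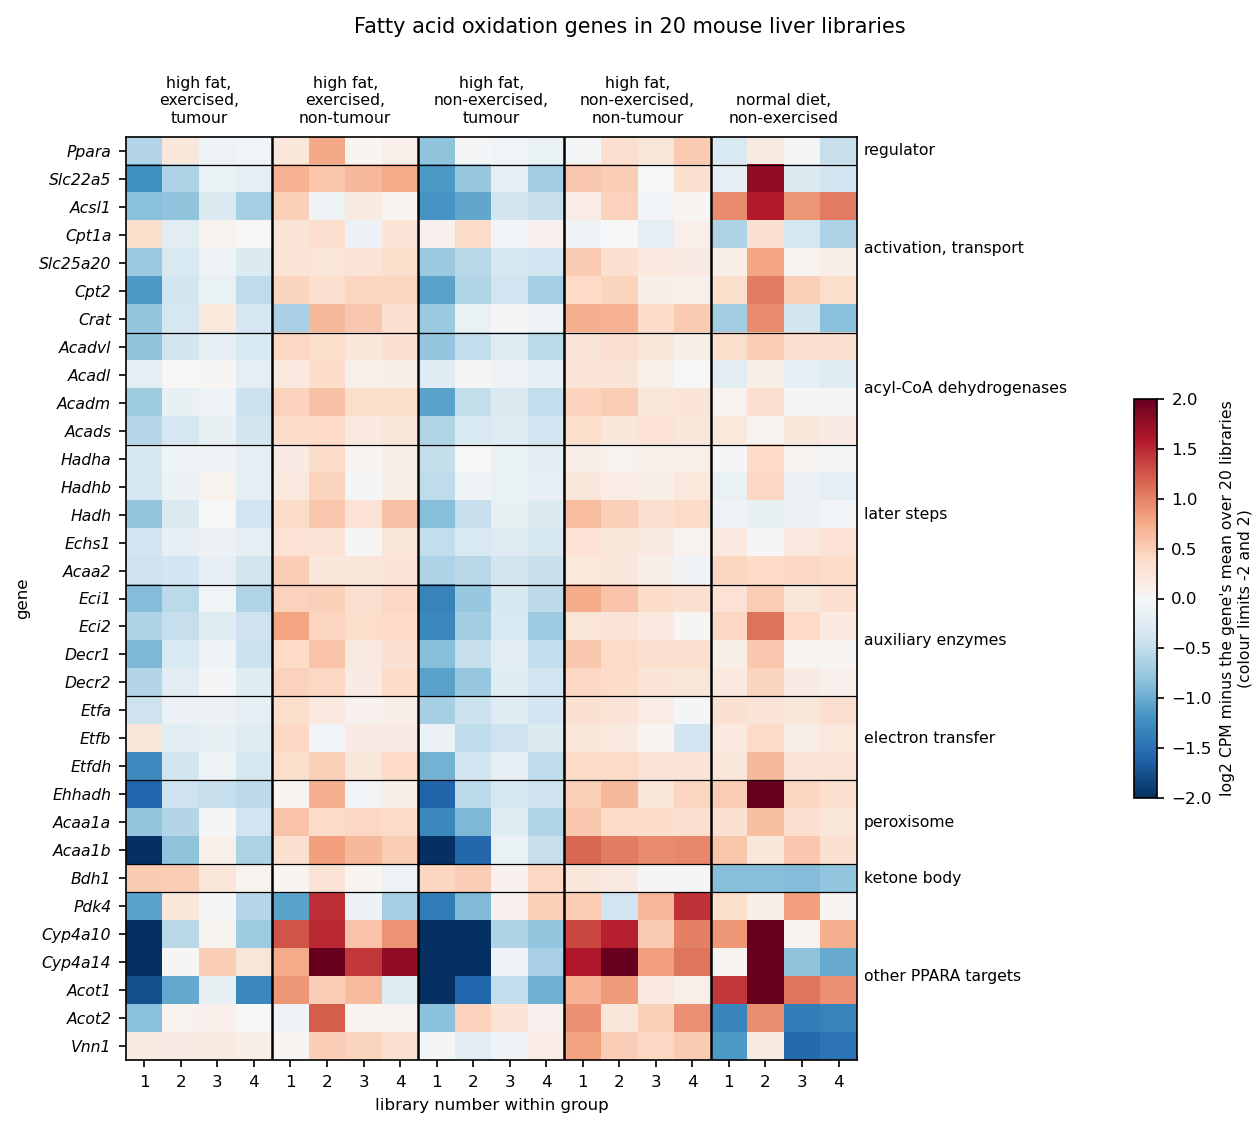
Heat map of the 33 genes in 20 libraries. Each row is a gene, grouped by role, each column a library, grouped by diet, exercise and tissue piece, and colour is log2 CPM minus that gene's mean over all libraries, limited to -2 and 2. The tumour columns are mostly below the gene means from the dehydrogenases down to the peroxisomal enzymes, Bdh1 is above its mean in all 8 tumours, and normal-diet library 2 stands apart from the other 3 of its group.

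Tumours and non-tumour pieces of the same livers were compared to see how these genes differ in tumour tissue. Most of the oxidation genes were lower in tumours, in both arms. In exercised mice 20 of the 33 genes fell in tumours and 0 rose, and in non-exercised mice 24 fell and 0 rose (edgeR quasi-likelihood test, Benjamini-Hochberg adjusted p below 0.05 over all genes tested). At an unadjusted p below 0.05, 1 gene (Bdh1) was higher in each arm, and DESeq2 called 0 higher in exercised mice and 1 in non-exercised mice. In either direction, 6407 and 6573 of all 14428 genes had an unadjusted p below 0.05 in exercised and non-exercised mice. Tumour and non-tumour liver differed widely elsewhere too. Of all 14428 genes, 34.6% were called in exercised mice (16% downward) and 35.8% in non-exercised mice (17.8% downward), each as a share of all genes. The listed genes had a median log2 fold change of -0.65 in exercised mice and -0.81 in non-exercised mice, beside medians of 0.01 and -0.01 over all genes. Every tumour library lay below every non-tumour library for 23 of the 33 genes in exercised mice (13.9% of all genes) and for 26 in non-exercised mice (18.2% of all genes). The 19 genes that fell in both arms (12.5% of all genes did) are 95% of the calls in exercised mice and 79.2% of those in non-exercised mice. Within mice, 26 of the 33 were lower in the tumour than in the matched non-tumour piece in all 8 animals, against 20% of all genes. Because both pieces came from the same mouse, each arm was also fitted with the mouse as a block, and that value is given where it changes a call.

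**Figure D2:**
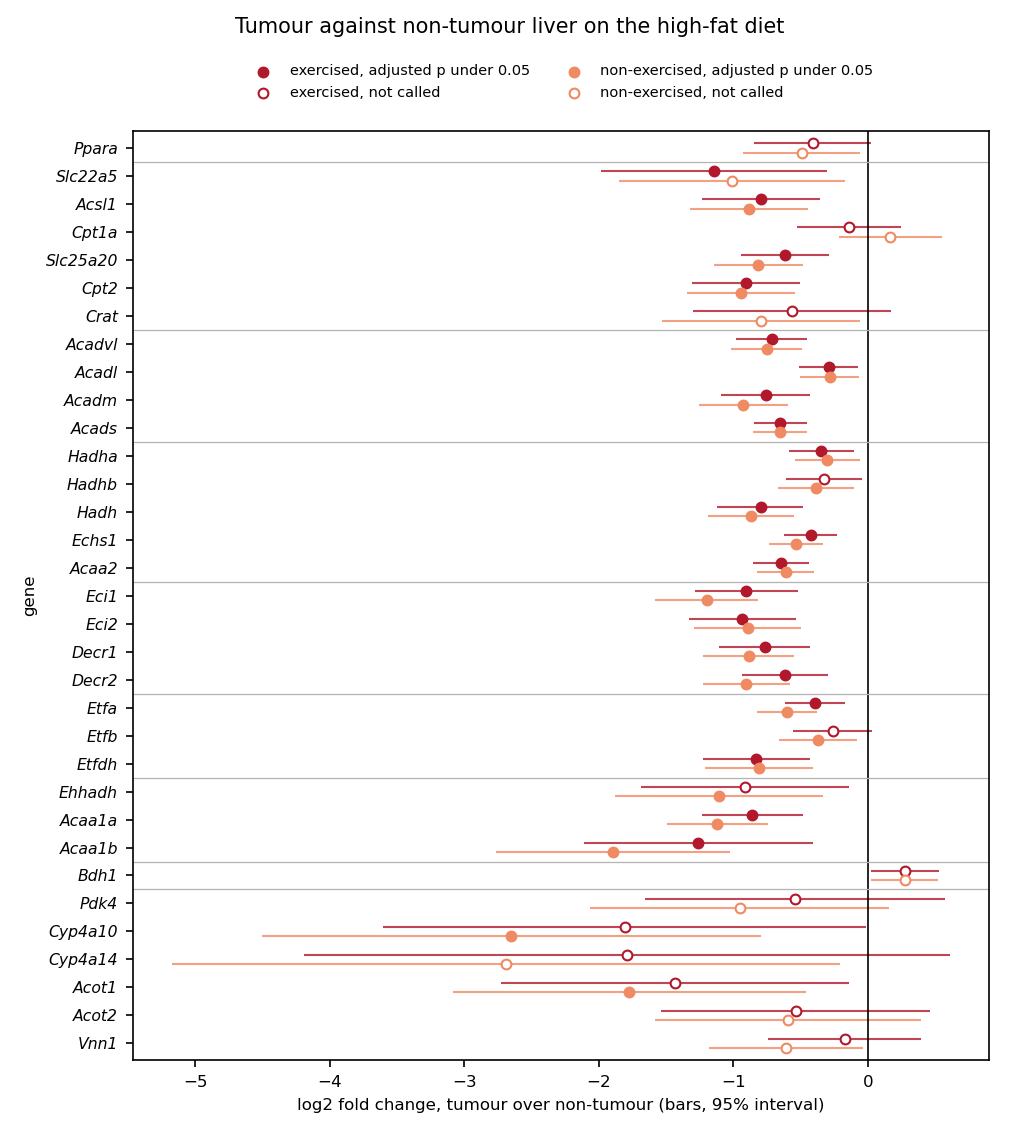
Log2 fold change of each gene, tumour over non-tumour, with its 95% interval, for the exercised and the non-exercised arm. Filled points passed an adjusted p of 0.05 and open points did not. Points of the dehydrogenase, isomerase and electron transfer genes lie left of 0 in both arms, and the widest intervals belong to Cyp4a14 and Cyp4a10.

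Cpt1a encodes the outer-membrane carnitine palmitoyltransferase, the main control point of entry into the mitochondrion. It had 567, 381, 471 and 442 CPM in tumours of exercised mice, against 533, 566, 410 and 541 CPM in their non-tumour pieces. It had 472, 583, 431 and 473 CPM in tumours of non-exercised mice, against 425, 446, 391 and 481 CPM in their non-tumour pieces. The groups overlap in both arms, and Cpt1a was called in neither (log2 fold change -0.14, SE 0.18, adjusted p = 0.58 in exercised mice and 0.17, SE 0.18, adjusted p = 0.495 in non-exercised mice). Slc25a20, the carnitine-acylcarnitine carrier of the inner membrane, fell in both arms (-0.61, adjusted p = 0.00573 in exercised and -0.81, adjusted p = 0.00075 in non-exercised mice). So did Cpt2, which releases the acyl-CoA inside (-0.91, adjusted p = 0.00166 and -0.94, adjusted p = 0.00102), and Acsl1, the long-chain acyl-CoA synthetase (-0.80, adjusted p = 0.00676 and -0.88, adjusted p = 0.00316).

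Slc22a5, which brings carnitine into the cell, had 7.2, 11.1, 15.5 and 14.9 CPM in tumours of exercised mice, against 27.6, 24.9, 26.7 and 28.4 CPM in their non-tumour pieces. All 4 tumours were below all 4 non-tumour pieces (log2 fold change -1.14, SE 0.394, adjusted p = 0.0331). The call was lost without any 1 of 5 libraries (non-tumour library 1, 3 or 4 or tumour library 1 or 2, adjusted p 0.0526 to 0.103). In non-exercised mice its log2 fold change was -1.01 (adjusted p = 0.0556, and 0.0146 with the mouse as a block). Crat, carnitine acetyltransferase, had log2 fold changes of -0.56 in exercised and -0.79 in non-exercised mice and was called in neither (adjusted p = 0.22 and 0.0831). With the mouse as a block it fell in non-exercised mice (adjusted p = 0.012).

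All 4 acyl-CoA dehydrogenase genes, whose enzymes take the first electrons from chains of different length, fell in both arms. Acads, for short chains, had the smallest p of the list in both. It had 116, 137, 156 and 134 CPM in tumours of exercised mice, against 222, 227, 198 and 204 CPM in their non-tumour pieces. In non-exercised mice it had 114, 139, 145 and 132 CPM in tumours, against 221, 201, 211 and 201 CPM in non-tumour pieces. No tumour reached the lowest non-tumour value of its arm (log2 fold change -0.65, SE 0.094, adjusted p = 0.000139 in exercised and -0.66, SE 0.094, adjusted p = 0.000123 in non-exercised mice). Acadvl had 217, 294, 341 and 309 CPM in tumours of exercised mice, against 504, 486, 444 and 469 CPM in their non-tumour pieces. Those groups do not overlap either (-0.71, SE 0.125, adjusted p = 0.000547). Acadm, the medium-chain enzyme, fell by 0.76 on the log2 scale in exercised and by 0.92 in non-exercised mice. Acadl, the long-chain enzyme, fell less (by 0.29, adjusted p = 0.0348 in exercised and by 0.28, adjusted p = 0.0381 in non-exercised mice). Its call was lost in exercised mice without non-tumour library 1 or 2 or tumour library 1 or 4 (adjusted p up to 0.094), and in non-exercised mice without any library but non-tumour 4 and tumour 2 (adjusted p up to 0.163).

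Among the 5 genes of the later steps, 4 fell in exercised mice and all 5 in non-exercised mice. Acaa2, whose thiolase cuts off acetyl-CoA, had 610, 622, 724 and 631 CPM in tumours of exercised mice, against 1150, 958, 964 and 970 CPM in their non-tumour pieces. In non-exercised mice it had 532, 557, 634 and 596 CPM in tumours, against 938, 950, 879 and 775 CPM in non-tumour pieces. There is no overlap in either arm (-0.64, SE 0.098, adjusted p = 0.000223 in exercised and -0.61, SE 0.098, adjusted p = 0.000229 in non-exercised mice). Hadh, the short-chain hydroxyacyl-CoA dehydrogenase, had 196, 278, 337 and 260 CPM in tumours of exercised mice, against 440, 492, 417 and 511 CPM in non-tumour pieces. Again the groups are apart (-0.80, SE 0.15, adjusted p = 0.000874), and Hadh fell by 0.87 in non-exercised mice (adjusted p = 0.000364). Echs1, the enoyl-CoA hydratase, fell by 0.42 in exercised and by 0.53 in non-exercised mice (adjusted p = 0.00246 and 0.000411).

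Hadha and Hadhb, with the shared start region given above, had smaller changes. In exercised mice Hadha fell by 0.34 (adjusted p = 0.026) and Hadhb had a log2 fold change of -0.33 (adjusted p = 0.0622). In non-exercised mice Hadha fell by 0.30 (adjusted p = 0.0455) and Hadhb by 0.39 (adjusted p = 0.0292). The Hadha call was lost in exercised mice without non-tumour library 2 or tumour library 1 (adjusted p = 0.072 and 0.081), and in non-exercised mice without any library but tumour 2 (adjusted p up to 0.215) and with the mouse as a block (adjusted p = 0.0601). The Hadhb call was lost without non-tumour library 1, 2 or 4 or tumour library 1 or 4 (adjusted p up to 0.142).

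The 4 auxiliary genes, whose enzymes handle the double bonds of unsaturated chains, fell in both arms. Eci1, a mitochondrial enoyl-CoA isomerase, had 69.8, 87.6, 123 and 83.3 CPM in tumours of exercised mice, against 174, 178, 158 and 169 CPM in their non-tumour pieces. It had 50.2, 75.3, 102 and 88 CPM in tumours of non-exercised mice, against 212, 188, 164 and 159 CPM in theirs. The highest tumour stayed below the lowest non-tumour piece in both arms (-0.90, SE 0.179, adjusted p = 0.00126 in exercised and -1.20, SE 0.18, adjusted p = 0.000149 in non-exercised mice). In exercised and non-exercised mice, Eci2, a second isomerase, fell by 0.93 and 0.89, Decr1, the mitochondrial dienoyl-CoA reductase, by 0.77 and 0.89, and Decr2, its peroxisomal counterpart, by 0.61 and 0.90.

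Of the electron transfer genes, Etfa fell in both arms (by 0.39 in exercised and by 0.60 in non-exercised mice). So did Etfdh, which encodes the dehydrogenase that hands the electrons to ubiquinone (by 0.83 and 0.81). Etfa in exercised mice had an adjusted p of 0.00792, and 0.0527 with the mouse as a block. Etfb, the partner subunit of Etfa, was not called in exercised mice (-0.26, adjusted p = 0.154) and fell in non-exercised mice (by 0.37, adjusted p = 0.0436). That call was lost without non-tumour library 1, 2 or 3 or tumour library 2, 3 or 4 (adjusted p up to 0.139).

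Of the 3 peroxisomal genes, 2 fell in exercised mice and all 3 in non-exercised mice. Acaa1b had 188, 522, 971 and 584 CPM in tumours of exercised mice, against 1130, 1600, 1420 and 1270 CPM in their non-tumour pieces. It had 197, 304, 827 and 658 CPM in tumours of non-exercised mice, against 2020, 1850, 1740 and 1770 CPM in theirs. Tumours were below non-tumour pieces without overlap in both arms, with tumour library 1 lowest each time. The log2 fold change was -1.26 (SE 0.399, adjusted p = 0.0214) in exercised mice, where the call was lost without tumour library 1 (adjusted p = 0.0513) or 2 (adjusted p = 0.054), and -1.89 (SE 0.407, adjusted p = 0.00189) in non-exercised mice. Acaa1a, its near copy, had 54.9, 71.9, 114 and 88.9 CPM in tumours of non-exercised mice, against 196, 176, 174 and 168 CPM in their non-tumour pieces. These groups are also separate (-1.12, SE 0.177, adjusted p = 0.000213), and Acaa1a fell by 0.86 in exercised mice (adjusted p = 0.00161). Ehhadh, the peroxisomal bifunctional enzyme, had a log2 fold change of -0.91 in exercised mice (adjusted p = 0.0589, and 0.0229 with the mouse as a block) and fell by 1.11 in non-exercised mice (adjusted p = 0.0245). That call was lost without non-tumour library 2 (adjusted p = 0.0628) or tumour library 1 (adjusted p = 0.0908). Reads that fit several places were not counted, so the levels of near-identical copies such as Acaa1a with Acaa1b, the Cyp4a genes and the Acot genes are uncertain.

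Ppara itself had 67, 118, 93.5 and 96.2 CPM in tumours of exercised mice, against 117, 169, 103 and 108 CPM in their non-tumour pieces. In non-exercised mice it had 57.5, 97.9, 96.2 and 91.8 CPM in tumours, against 97.1, 124, 118 and 144 CPM in non-tumour pieces. Each mouse had less Ppara in the tumour than in its own non-tumour piece, while the groups overlap. Without the mouse in the fit the log2 fold changes were -0.41 (SE 0.203, adjusted p = 0.127) in exercised and -0.49 (SE 0.203, adjusted p = 0.0671) in non-exercised mice. With the mouse as a block Ppara fell in both arms (adjusted p = 0.0364 and 0.0154 in exercised and non-exercised mice). Of the 6 genes listed only as its targets, 0 fell in exercised mice and 2 in non-exercised mice. In exercised mice 2 of them, Cyp4a10 and Acot1, had an unadjusted p below 0.05 (6407 of all 14428 genes did). PPARA also switches on many of the enzyme and carrier genes described above, so these 6 are not all of its targets. Cyp4a10, another omega-hydroxylase and a classical PPARA target of rodent liver, had 9.86, 72.7, 112 and 65.2 CPM in tumours of exercised mice, against 253, 298, 157 and 199 CPM in their non-tumour pieces. In non-exercised mice it had 2.98, 16.1, 69.3 and 62.3 CPM in tumours, against 268, 311, 152 and 214 CPM in non-tumour pieces. Every tumour was below every non-tumour piece of its arm, and tumour library 1 was lowest each time. The log2 fold change was -1.81 in exercised mice (SE 0.842, adjusted p = 0.106) and -2.65 in non-exercised mice (SE 0.869, adjusted p = 0.0248). The call was lost without non-tumour library 2 (adjusted p = 0.056), tumour library 1 (adjusted p = 0.0584) or tumour library 2 (adjusted p = 0.0757).

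Acot1, a cytosolic thioesterase, had 1.07, 3.95, 8.6 and 6.2 CPM in tumours of non-exercised mice, against 19.7, 22, 13.8 and 13 CPM in their non-tumour pieces. The groups are separate (-1.77, SE 0.616, adjusted p = 0.0328), yet the call was lost without any 1 of 5 libraries (non-tumour 1 or 2, tumour 1, 2 or 4, adjusted p 0.0541 to 0.102). In exercised mice its log2 fold change was -1.43 (adjusted p = 0.0767). Cyp4a14 had 9.44, 178, 247 and 208 CPM in tumours of exercised mice, against 295, 851, 469 and 603 CPM in their non-tumour pieces. In non-exercised mice it had 1.35, 29, 167 and 112 CPM in tumours, against 532, 783, 313 and 369 CPM in non-tumour pieces. Its tumours are all below its non-tumour pieces, with a spread that left it uncalled (-1.79, SE 1.126, adjusted p = 0.233 in exercised and -2.69, SE 1.165, adjusted p = 0.0809 in non-exercised mice). Acot2, the mitochondrial thioesterase, Pdk4, and Vnn1, a pantetheinase, were not called (log2 fold changes of -0.54, -0.54 and -0.17 in exercised mice and -0.59, -0.95 and -0.61 in non-exercised mice). With the mouse as a block, Pdk4 (adjusted p = 0.0272) and Vnn1 (adjusted p = 0.00547) fell in non-exercised mice. In all, the blocked fit called 21 of the genes lower in exercised mice, 19 of them shared with the 20 above, and 28 in non-exercised mice, 23 of them shared with the 24 above. The shares of all genes given earlier belong to the fit without the block, and those of the blocked fit are not given here.

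Bdh1, which interconverts the ketone bodies acetoacetate and beta-hydroxybutyrate in mitochondria, was higher in the tumour of all 8 mice, the only member of the list for which this held (18.6% of all genes were). It had 509, 500, 418 and 372 CPM in tumours of exercised mice, against 365, 426, 362 and 331 CPM in their non-tumour pieces. It had 477, 499, 374 and 468 CPM in tumours of non-exercised mice, against 415, 400, 346 and 343 CPM in theirs. The differences within mice were 0.172 to 0.481 on the log2 scale in exercised mice and 0.113 to 0.452 in non-exercised mice. The group values overlap, and the log2 fold changes of 0.28 (SE 0.118, adjusted p = 0.074) in exercised and 0.27 (SE 0.118, adjusted p = 0.0771) in non-exercised mice did not pass the test. DESeq2 called it in non-exercised mice (adjusted p = 0.0347) and not in exercised mice (adjusted p = 0.0544). Bdh1 was not called with the mouse as a block in edgeR (adjusted p = 0.0714 in exercised and 0.0701 in non-exercised mice) and rose in both arms with the mouse as a random block in limma-voom (adjusted p = 0.038 and 0.0412).

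**Figure D3:**
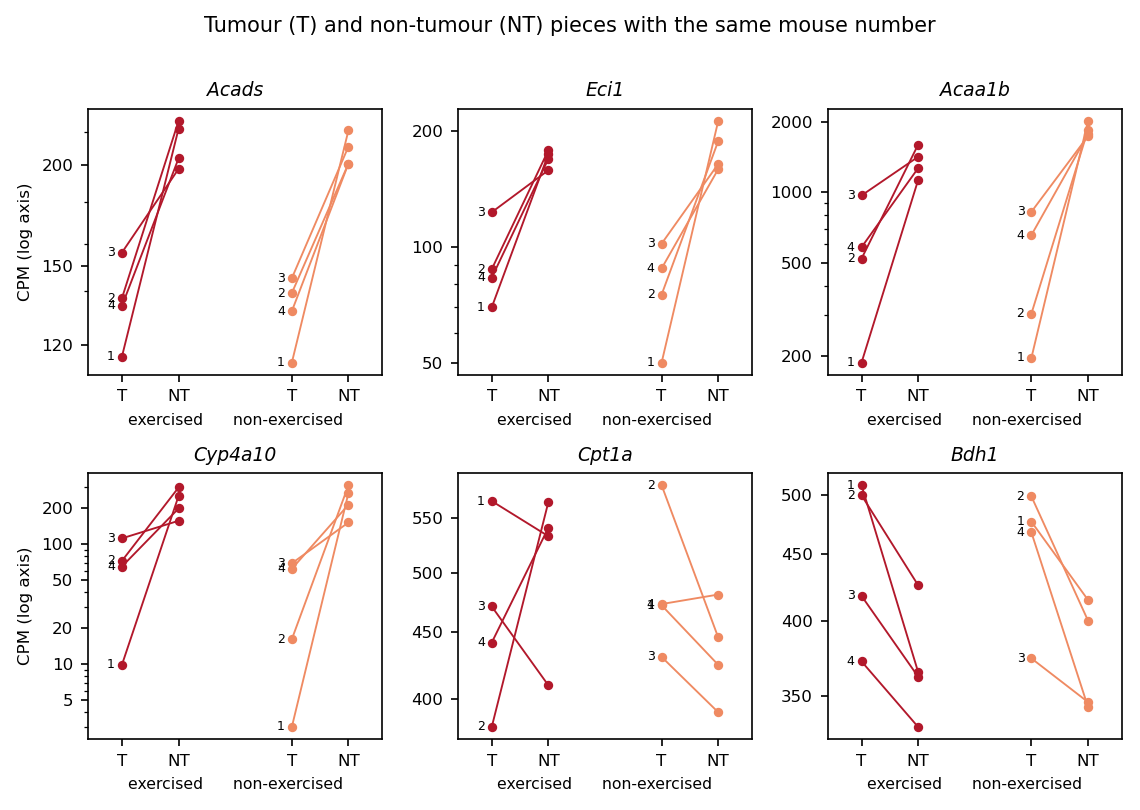
CPM on a log axis of Acads, Eci1, Acaa1b, Cyp4a10, Cpt1a and Bdh1 in the tumour piece (left of each pair) and the non-tumour piece of each mouse, joined by a line, for exercised and non-exercised mice. The tumour end is the lower one in all 8 mice for Acads, Eci1, Acaa1b and Cyp4a10 and the higher one in all 8 for Bdh1, and the lines of Cpt1a run in both directions.

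The tumours were not alike. Tumour library 1 of each arm was the lowest of its 4 tumours for 28 of the 33 genes in exercised mice and 29 in non-exercised mice, while it was lowest for 30.6% and 29.6% of all genes. Tumour library 3 was the highest of its group for 25 of the 33 genes in exercised and 23 in non-exercised mice (26.8% and 33.7% of all genes). The SD of log2 CPM among tumours had a median over the list of 0.292 in exercised and 0.318 in non-exercised mice, against 0.153 and 0.146 in their non-tumour liver. The same medians over all genes were 0.251 and 0.224 in tumours, against 0.206 and 0.18 in non-tumour liver. Cyp4a14 had the highest SD of the list among the tumours of each arm (2.236 in exercised and 3.098 in non-exercised mice), and Vnn1 the lowest among tumours of exercised mice (0.033).

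Markers of other cells moved with the tumours as well. Summed over 7 bile duct cell markers, the level was 103 to 1450 CPM in tumours of exercised mice, against 42.1 to 120 CPM in their non-tumour liver, and 372 to 1470 CPM in tumours of non-exercised mice, against 45.4 to 179 CPM in theirs. Spp1, an osteopontin gene that other cells also express, carried the sum, and Spp1 and Sox9 rose in both arms. The defining keratin genes stayed low, with Krt7 at 0.638 and 0.599 CPM and Krt19 at 0.649 and 0.587 CPM on average in tumours of exercised and non-exercised mice, and Krt19 fell in the non-exercised arm. The highest sums were those of tumour library 1 of each arm. That library also had the highest hepatocyte marker sum of its arm (244000 CPM in exercised and 235000 CPM in non-exercised mice). Its Alb share was the highest as well (15.3% and 15.9%). The summed level of 13 detected hepatocyte markers was 143000 to 244000 CPM in tumours of exercised mice, against 95200 to 108000 CPM in non-tumour liver, and 115000 to 235000 CPM in tumours of non-exercised mice, against 69800 to 98000 CPM. Alb makes up most of this sum in tumours. Among those 13 markers, 4 rose and 4 fell in exercised mice and 4 rose and 6 fell in non-exercised mice. Their median log2 fold change was -0.129 in exercised and -0.165 in non-exercised mice. Of 7 endothelial markers 4 rose in exercised and 3 in non-exercised mice, and of 8 stellate cell markers 2 rose in each arm. Of 10 macrophage markers 3 fell and 1 rose in exercised mice, and 2 fell and 1 rose in non-exercised mice. The part of these cell markers in the fall of the oxidation genes was not tested.

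Most called genes of the same and related routes outside the list fell too. Measured further genes of fatty acid oxidation and related acyl-CoA metabolism numbered 42, among them branched-chain amino acid enzymes such as Ivd and Acadsb. Of these 42, 30 fell and 4 rose in tumours of exercised mice, and 32 fell and 5 rose in tumours of non-exercised mice. Examples are Hsd17b10, a mitochondrial hydroxyacyl-CoA dehydrogenase (-1.06 in exercised and -1.16 in non-exercised mice), and Pecr, a peroxisomal enoyl-CoA reductase (-1.26 and -1.36). Acsl4, an acyl-CoA synthetase that prefers arachidonic acid, rose (1.63 and 1.68). Of 11 further ketone body genes, 4 fell and 1 rose in each arm. Sirt3, a mitochondrial deacetylase, fell (-0.92 in exercised and -1.17 in non-exercised mice). Of 43 measured further genes of the PPARA axis, 13 fell and 4 rose in exercised mice and 19 fell and 3 rose in non-exercised mice. In that group Pank1, a pantothenate kinase, fell (-0.89 and -1.12), while Cyp4a31, a close relative of Cyp4a10, rose (3.05 and 3.58). General organelle genes fell as well, with 9 of 19 mitochondrial genes in exercised and 10 in non-exercised mice, and 10 of 17 peroxisome assembly and membrane genes in exercised and 15 in non-exercised mice, and 0 rose.

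The high-fat and the normal diet were compared in non-tumour liver of non-exercised mice on the high-fat diet and liver of normal-diet mice. On the high-fat diet 3 of the 33 genes rose (14% of all genes did) and 3 fell (11.9% of all genes), so 6 were called where 25.9% of all genes were. Bdh1 had 415, 400, 346 and 343 CPM on the high-fat diet, against 195, 196, 194 and 205 CPM on the normal diet. Its 4 normal-diet values nearly coincide and lie below every high-fat value (log2 fold change 0.93, SE 0.119, adjusted p = 8.26e-05). Vnn1 had 222, 179, 170 and 183 CPM on the high-fat diet, against 57.2, 145, 43.3 and 45.6 CPM on the normal diet. Normal-diet library 2 is the closest to the high-fat values without reaching them (1.37, SE 0.273, adjusted p = 0.00192). Hadh had 519, 474, 429 and 444 CPM on the high-fat diet, against 318, 305, 314 and 328 CPM on the normal diet, with no overlap (0.56, SE 0.149, adjusted p = 0.0109).

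Acsl1 had 903, 1120, 787 and 836 CPM on the high-fat diet, against 1560, 2460, 1500 and 1670 CPM on the normal diet. The whole high-fat group lies below the normal-diet group (-0.98, SE 0.206, adjusted p = 0.00264). Acot1 had 19.7, 22, 13.8 and 13 CPM on the high-fat diet, against 32.6, 154, 25.5 and 22.9 CPM on the normal diet, where library 2 is far above the rest (-1.78, SE 0.581, adjusted p = 0.032). Acaa2 fell slightly (-0.29, SE 0.098, adjusted p = 0.039), and lost its call without any 1 of 7 of the 8 libraries compared (adjusted p 0.0534 to 0.137). Ppara had 97.1, 124, 118 and 144 CPM on the high-fat diet, against 80.8, 113, 97.3 and 72.9 CPM on the normal diet, and Cpt1a had 425, 446, 391 and 481 CPM, against 292, 549, 350 and 289 CPM. Both pairs of groups overlap, and neither gene was called (0.41, SE 0.203, adjusted p = 0.146 and 0.24, SE 0.18, adjusted p = 0.347).

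Normal-diet library 2 stood apart. It was the highest of its 4 libraries for 25 of the 33 genes, as it was for 31.9% of all genes. Its CPM was 17.2 times the mean of the other 3 for Cyp4a14, 7.6 times for Cyp4a10, 5.72 times for Acot1, 4.95 times for Acot2, 4.15 times for Slc22a5, 3.06 times for Ehhadh, 2.97 times for Vnn1 and 2.95 times for Crat. Its depth (18229010 counts) and Alb share (5.24%) lie within the range of its group, and its mitochondrial share (5.07%) is the lowest of the 4. Without it, 7 genes rose (11.2% of the 14667 genes then tested) and 1 fell (10.2%), in place of 3 and 3. The genes then called higher were Bdh1 (0.91, adjusted p = 0.000414), Vnn1 (1.94, adjusted p = 1.89e-07), Hadh (0.53, adjusted p = 0.034), Acot2 (2.03, adjusted p = 0.0015), Crat (1.19, adjusted p = 0.007), Cpt1a (0.48, adjusted p = 0.0306) and Acadl (0.36, adjusted p = 0.02). Acsl1 stayed lower (-0.81, adjusted p = 0.0107). Acot1 (-0.67, adjusted p = 0.299) was no longer called, and its call was also lost without high-fat library 1 (adjusted p = 0.0591), 3 (0.0832) or 4 (0.0868). Of the uncalled genes 7 changed sign. Slc22a5, Ehhadh, Cyp4a10 and Cyp4a14 had log2 fold changes of -0.20, -0.56, -0.85 and -0.33 with the library and of 0.62, 0.03, 0.55 and 2.00 without it, and Hadha, Echs1 and Etfdh stayed within 0.1 of 0 in both.

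**Figure D4:**
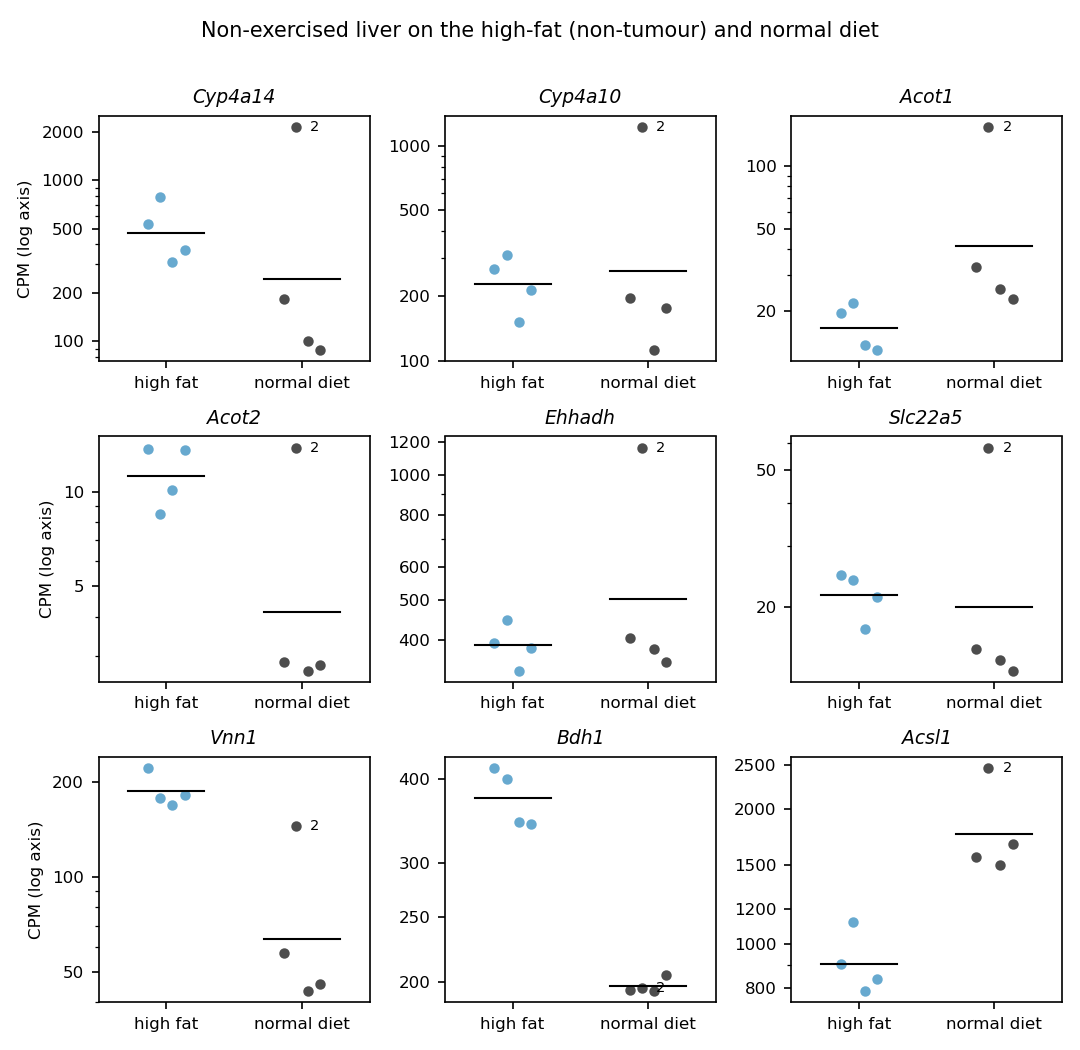
CPM on a log axis of 9 of the genes in non-tumour liver on the high-fat diet (left) and liver on the normal diet (right), non-exercised mice, with 1 point per library and a bar at the geometric mean. Normal-diet library 2, marked 2, is the highest of its group for each gene shown except Bdh1, where the 4 normal-diet values nearly coincide.

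Beside the diet result, 6 of 10 macrophage markers rose (summed level 283 to 345 CPM on the high-fat diet, against 167 to 239 CPM on the normal diet), 3 of 8 stellate cell markers and 3 of 4 red cell markers rose, and 7 of 13 hepatocyte and 2 of 7 endothelial markers fell. Their part in the changes of the oxidation genes was not tested. Of the 42 further genes of oxidation and related acyl-CoA metabolism, 5 rose and 10 fell on the high-fat diet. Abcd2, a peroxisomal importer of very long chains, rose (3.14). Ivd (isovaleryl-CoA dehydrogenase) and Acadsb (a branched short-chain dehydrogenase), both of amino acid breakdown, fell (-0.91 and -0.98). Of the 43 further PPARA axis genes, 6 rose, among them Cd36, a fatty acid translocase (1.84), and Vldlr, a lipoprotein receptor (3.16), and 9 fell. Of the 11 further ketone genes, Slc16a7, a monocarboxylate transporter, rose (1.004) and Bdh2 fell (-1.28).

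Exercised and non-exercised mice on the high-fat diet were compared in each kind of tissue, which was the question named in the series' design. In non-tumour liver 0 of the 33 genes were called (0.0139% of all genes, or 2 genes, were), and 0 had an unadjusted p below 0.05 (1203 of all 14428 genes did). DESeq2 also called 0 of the 33 there and in tumours, while it called 117 and 79 genes in all. Log2 fold changes ran from -0.44 (Acaa1b) to 0.32 (Eci2). Acaa2 had 1150, 958, 964 and 970 CPM in exercised mice, against 938, 950, 879 and 775 CPM in non-exercised mice, the smallest p of the list (0.19, SE 0.098, adjusted p = 0.642). Eci2 had 261, 204, 195 and 200 CPM in exercised mice, against 180, 181, 173 and 154 CPM in non-exercised mice (0.32, SE 0.185, adjusted p = 0.678). All exercised values lie above all non-exercised ones for both genes, as they also do for Slc22a5 (2.54% of all genes), and all lie below for Acaa1b (2.27% of all genes), at 1130, 1600, 1420 and 1270 CPM in exercised mice, against 2020, 1850, 1740 and 1770 CPM in non-exercised mice. Ppara had 117, 169, 103 and 108 CPM in exercised mice, against 97.1, 124, 118 and 144 CPM in non-exercised mice, and Cpt1a had 533, 566, 410 and 541 CPM, against 425, 446, 391 and 481 CPM. Both overlap (0.04, adjusted p = 0.98 and 0.23, adjusted p = 0.792). For 25 of the 33 genes the 95% interval of the log2 fold change lay within -1 to 1, that is, within a change of 2-fold either way. The fit uses a single spread per gene over 5 groups, so these intervals and p-values also carry the spread of tumours and normal-diet liver. For Acaa1b the SE was 0.394, with log2 CPM SDs of 0.215 and 0.097 in exercised and non-exercised non-tumour liver. In tumours its SDs were 0.991 and 0.962. Fitted on the compared groups alone, 0 of the 33 and 0 of all genes were called in either tissue.

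In tumours 0 of the 33 genes were called (0.0208% of all genes, or 3 genes, were), and 2 had an unadjusted p below 0.05 (1252 of all 14428 genes did). Etfa had 291, 358, 357 and 342 CPM in tumours of exercised mice, against 245, 287, 323 and 295 CPM in tumours of non-exercised mice (0.23, SE 0.104, adjusted p = 0.562). Decr2 had 124, 159, 183 and 157 CPM in tumours of exercised mice, against 88.6, 110, 158 and 141 CPM in tumours of non-exercised mice (0.32, SE 0.15, adjusted p = 0.565). Tumour library 1 was the lowest of each group for both, and the groups overlap. Ppara (0.12, adjusted p = 0.89) and Cpt1a (-0.08, adjusted p = 0.932) overlapped as well. The largest log2 fold change was that of Cyp4a14 (1.06, SE 1.108), whose interval reached 2.36 to either side, and the narrowest interval was that of Echs1 (0.198 to either side). Intervals lay within -1 to 1 for 26 of the 33 genes. Of the further genes of oxidation and related acyl-CoA metabolism, ketone bodies and the PPARA axis (42, 11 and 43), 0 were called for exercise in either tissue. Of them, 3, 0 and 8 had an unadjusted p below 0.05 in tumours and 1, 0 and 5 in non-tumour liver. Over all 14428 genes, 1252 did in tumours and 1203 in non-tumour liver.

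**Figure D5:**
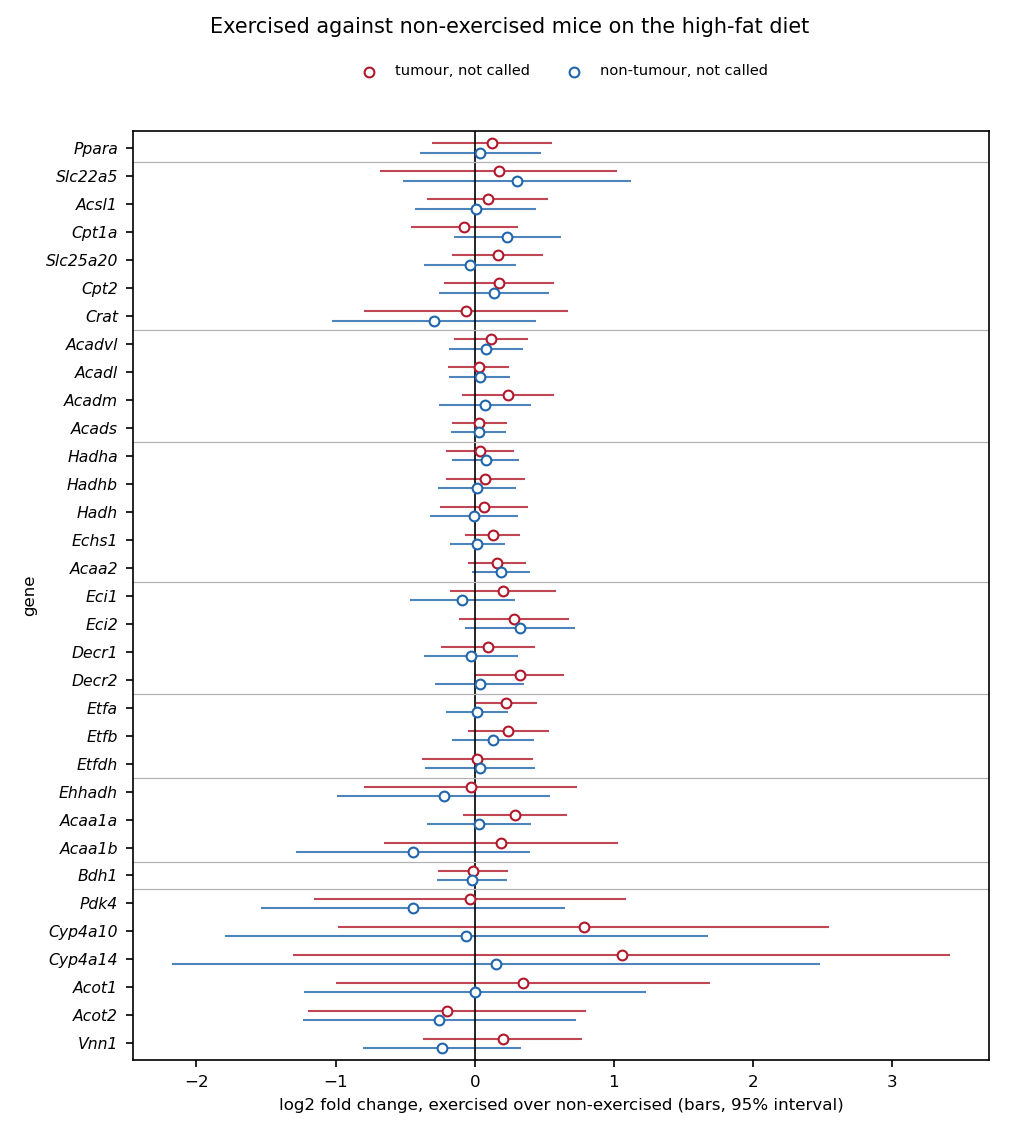
Log2 fold change of each gene, exercised over non-exercised, with its 95% interval, in tumours and in non-tumour liver of mice on the high-fat diet. All points are open, since none passed an adjusted p of 0.05, and the intervals of nearly all genes include 0.

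Whether the tumour difference itself changed with exercise was tested as an interaction, and 0 of the 33 genes passed (0% of all genes did, with edgeR and with DESeq2). An unadjusted p below 0.05 was found for 0 of the 33 and for 293 of all 14428 genes. The differences of the log2 fold changes ran from -0.31 (Cpt1a) to 0.91 (Cyp4a14), and their intervals lay within -1 to 1 for 23 of the 33 genes. Hadhb, Etfb, Ehhadh, Cyp4a10 and Acot1, called lower in non-exercised mice alone, and Slc22a5, called lower in exercised mice alone, were therefore not shown to differ between the arms. The diet comparison, the exercise comparison in non-tumour liver and the tumour comparison in non-exercised mice all use the same 4 non-tumour libraries of non-exercised mice.

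Within groups the genes also varied together from library to library. Over the 20 libraries, with group means removed, Hadha and Hadhb had a correlation of 0.961 on the log2 scale, Cyp4a10 and Cyp4a14 one of 0.971, and Acadvl and Etfdh one of 0.953. These are descriptions, since the points share depth, normalisation and, for the close copies, sequence. Etfb and Bdh1 stood apart, with median correlations with the rest of the list of -0.208 and -0.179. With the group differences left in, the first principal component of the list took up 80.3% of its variance over the 20 libraries, led by Cyp4a14 (loading 0.568), Cyp4a10 (0.477) and Acot1 (0.331).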

How the data were processed

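Libraries were made from total RNA of frozen liver with a stranded mRNA kit, per the labels' protocols. Reads were trimmed with Trim Galore 0.6.10, aligned with STAR 2.7.11a to GRCm39 and counted with featureCounts of Subread 2.0.5, per the submitters' processing notes. The deposited values are whole, unnormalised counts for the genes of GENCODE vM27, counted on the reverse strand (setting 2) without reads that fit several places, per the file headers. The members and gene lists were chosen with earlier results of these data known. Of 55359 identifiers, 52083 had a symbol.

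From these counts, edgeR 4.0.16 (R 4.3.3) kept 14428 genes (filterByExpr over 5 groups, minimum count 10, minimum total 15), applied TMM scaling and fitted all 20 libraries with 5 group means (15 residual degrees of freedom). Each gene thus had a single estimate of spread, shared by all 5 groups in every comparison. A robust quasi-likelihood test with Benjamini-Hochberg adjustment over all genes tested, threshold 0.05, was used for 6 comparisons. SE is the log2 fold change divided by the square root of its F statistic. Log2 CPM used a prior count of 2. TPM used the exon lengths in the files. Cell markers were taken as a whole list. Genes with values per library are, in each comparison, up to 4 called members with the smallest p, up to 2 with the largest fold change, Ppara and Cpt1a, or the 2 smallest p where none was called. Bdh1 in tumours, Cyp4a14 and Acot1 were added after their values were seen.

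Alternatives were DESeq2 1.42.0, limma 3.58.1 (voom), other scalings and filters, the compared groups alone, TPM, a replicate block and each library left out. The test was also run on simulated counts of independent libraries, with the same spread per gene in every group. That run does not cover pieces that share a mouse, unequal spread between groups or an outlying library. Within an arm the titles put both pieces in the same mouse, and the deviations of same-numbered pieces correlated by 0.075 to 0.441 in exercised and by -0.083 to 0.213 in non-exercised mice. Except for that pairing, nothing in the labels shows how the animals were housed or processed in batches, so p-values measure the spread between these mice. No libraries were duplicates: the closest pair of a group differed by a chi-square of 9.16 per gene. Totals of 16471378 to 20271948 counts set the precision, and intervals cover the spread between libraries. Promoter windows came from RefSeq (GRCm38.p6), matched by symbol.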

Additional observations from a re-analysis of the deposited data

Results flagged for a closer look

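Of 165 groups of 4 libraries (33 genes in 5 groups), 18 held 1 library set far from the other 3. Far means a gap to its nearest neighbour above 0.829 of the group's range. Independent normal values would give about 1 in 20, but these genes vary together within groups. The share over all genes was not counted, so the number 18 is a description and no excess was tested. Normal-diet library 2 was high in 7 of the 18. It had 58.2 CPM of Slc22a5 (13 to 15 CPM in the others), 205 CPM of Slc25a20 (123 to 130 CPM), 124 CPM of Hadhb (82.3 to 85.9 CPM), 296 CPM of Decr1 (212 to 220 CPM), 460 CPM of Etfdh (344 to 350 CPM), 1160 CPM of Ehhadh (354 to 406 CPM) and 13.8 CPM of Acot2 (2.69 to 2.86 CPM). It was the highest of its group for 25 of the 33 genes (31.9% of all genes) and the lowest for 4 (32.4% of all genes).

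Tumour library 1 of exercised mice was low for Ehhadh (94.5 CPM, others 198 to 213 CPM), Cyp4a14 (9.44 CPM, others 178 to 247 CPM) and Acot2 (3.99 CPM, others 7.22 to 7.76 CPM). Tumour library 1 of non-exercised mice was low for Ppara (57.5 CPM, others 91.8 to 97.9 CPM) and Ehhadh (94.2 CPM, others 195 to 223 CPM). The 6 cases in non-tumour liver of exercised mice fell on all 4 libraries. Library 1 was high for Acaa2 (1150 CPM, others 958 to 970 CPM) and Eci2 (261 CPM, others 195 to 204 CPM). Library 2 was low for Cpt2 (153 CPM, others 164 to 166 CPM) and high for Acot2 (16.8 CPM, others 6.81 to 7.47 CPM). Library 3 was low for Echs1 (250 CPM, others 293 to 301 CPM), and library 4 was high for Slc25a20 (151 CPM, others 141 to 142 CPM). Non-tumour liver of non-exercised mice had 0 such cases.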

How the results depend on the processing

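In tumours, 0 to 1 genes rose and 17 to 22 fell in each arm when any 1 library was left out. Bare counts of lower genes were 17 (exercised) and 17 (non-exercised) without a filter, 20 and 21 with RLE scaling, 22 and 26 with DESeq2, 22 and 28 with voom, and 21 and 28 with the mouse as a replicate block. Over all genes, calls in either direction numbered 4033 and 4272 of 29517 without a filter. Of 14428 genes they numbered 4974 and 5154 with RLE scaling and 5296 and 5455 with DESeq2. Those of voom and the block are not given here. DESeq2 called 1 gene higher in non-exercised mice, and voom 1 in each arm. Of the calls made, 15 of 20 (exercised) and 17 of 24 (non-exercised) were kept under every alternative and every left-out library, as were 4 of 6 for the diet. For the diet, 3 to 7 genes rose and 1 to 3 fell with 1 library left out, 1 fell without a filter, and 5 rose with the compared groups alone, 6 with a block of the numbers and 5 with voom. Over all genes, calls in either direction numbered 2823 of 29517 without a filter and 4483 of 13306 with the compared groups alone. Mouse numbers of different arms belong to different mice, and the deviations of their same-numbered pieces correlated by -0.392 to 0.573. Between tumours of the exercised and non-exercised arms the correlation was 0.466 for number 1, 0.115 for 2, 0.573 for 3 and 0.028 for 4. The cause of these correlations and of the shifts in the counts was not tested. Uncalled log2 fold changes that changed sign include the following. For the diet, Cyp4a14 was 0.44 with the replicate block and 0.98 with voom. Leaving out 1 library moved Ehhadh over -0.743 to 0.027, Cyp4a10 over -1.175 to 0.545 and Cyp4a14 over -0.696 to 2.004, each positive only without normal-diet library 2, where Slc22a5 was 0.624. For exercise in non-tumour liver, Cyp4a14 was -0.13 with the block, and leaving out 1 library moved Ppara over -0.139 to 0.137, Cyp4a10 over -0.216 to 0.11 and Cyp4a14 over -0.131 to 0.463. For exercise in tumours it moved Ppara over -0.047 to 0.254 and Cpt1a over -0.183 to 0.006. For the interaction it moved Ppara over -0.1 to 0.249, and for tumours of exercised mice Pdk4 over -0.808 to 0.274. Without the tumour library of mouse 1 in both arms, an alternative chosen after seeing the data, 0 genes were called for exercise in tumours (Etfa 0.22, adjusted p = 0.648, and Decr2 0.29, adjusted p = 0.638). Counting noise at this depth was not separated from the spread between mice.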

Other observations

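Other members than those given by library above differed within groups in a few ways. Pdk4 had the highest SD of log2 CPM of the 33 genes in both kinds of non-tumour liver on the high-fat diet (1.11 in exercised and 0.758 in non-exercised mice), where Slc25a20 (0.045) and Hadha (0.021) had the lowest. It had 7.84, 45.5, 15.2 and 10.2 CPM in non-tumour liver of exercised mice, against 23.4, 12.5, 26.2 and 45.4 CPM in that of non-exercised mice. In normal-diet liver the lowest SD was that of Acaa2 (0.017), at 1090, 1080, 1080 and 1060 CPM, and the highest that of Cyp4a14 (2.142). As a share of all transcripts per length (TPM), the 33 genes in tumours were at 0.56 of their non-tumour level in exercised mice and at 0.503 in non-exercised mice.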
